A study of Mus musculus with 6 samples.

Results

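A set of 9 genes that encode surface markers of early blood cells, Kit, Ly6a, Cd34, Flt3, Slamf1, Cd48, Procr, Cd27 and Esam, was read from RNA sequencing of mouse bone marrow LSK cells. They were chosen by gene symbol, 9 of the 16022 symbols in the table, as the markers of the sort gate and those that divide stem cells from multipotent progenitors. These markers and the gene lists below were chosen with earlier results of these data known. All 9 had enough counts to be tested, among 12875 tested genes. LSK cells are the lineage-negative fraction that carries high Sca-1 and c-kit at the surface. The 6 libraries comprised 3 from wild-type (WT) mice and 3 from HDAC6 knockout mice, which lack a mainly cytoplasmic deacetylase. Age, strain, knockout allele and any treatment are not stated in the labels. Whether each sample is a separate animal is not stated either, so every p-value covers the spread among these samples, which may be partly technical.

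The LSK gate collects several populations that surface proteins divide further. Long-term stem cells carry CD150 (the product of Slamf1), EPCR (Procr) and ESAM (Esam) and lack CD48, FLT3 and, in adult mice, most CD34. Multipotent progenitors gain CD34, and their subsets gain CD48 or FLT3. c-kit (Kit) is the receptor of stem cell factor and Sca-1 (Ly6a) a small surface protein anchored in the membrane by a lipid, and cells enter the gate by the amount of these proteins, which was not measured here. In bulk RNA, fewer cells of a type and less RNA per cell cannot be told apart.

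Counts per library totalled 25993988 to 28743694. Hdac6 itself stood at 54.3 to 68.0 CPM in WT and 7.69 to 11.3 CPM in the knockout, where CPM is the count scaled to library size with TMM factors. It was the only gene of 12875, 0.00777%, that passed an adjusted p of 0.05 by the quasi-likelihood test of edgeR. Kit and Ly6a, the genes of both gated proteins, were read in every library, while the T and B cell genes Cd3e, Cd3d, Cd3g, Ms4a1 and Pax5 were under 1 CPM in each. Other genes of the same T and B cell lists were read in every library, among them Lck at 43.9 to 76.7 CPM and Cd79b at 49.4 to 58.9 CPM. Knockout replicate 2 stood apart in granulocyte and monocyte genes, and its values are given beside the results they accompany.

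Among the surface markers, Ly6a and Cd48 measured higher and Kit and Cd34 lower in every knockout library than in any WT library. The remaining 5 markers, Flt3, Slamf1, Procr, Cd27 and Esam, overlapped between the groups. So 4 of 9 markers had non-overlapping groups, 2 higher and 2 lower, against 18.6% of all tested genes (8.86% higher, 9.7% lower). The same 4 had an unadjusted edgeR p under 0.05, against 13.4% of all tested genes. By the adjusted edgeR p 0 of the 9 passed, and by DESeq2 2 of the 9, Kit and Ly6a, where 1.35% of genes with an adjusted p were called. Knockout replicate 3 lay nearest to WT for Kit, Cd34 and Cd48, but not for Ly6a. Over all tested genes, too, this library lay nearer to WT than to its own group. Its counts differed from WT replicates 1, 2 and 3 by a chi-square per degree of freedom of 35.6, 34.4 and 25.8. From knockout replicates 1 and 2 they differed by 58.5 and 53.9.

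**Figure D1:**
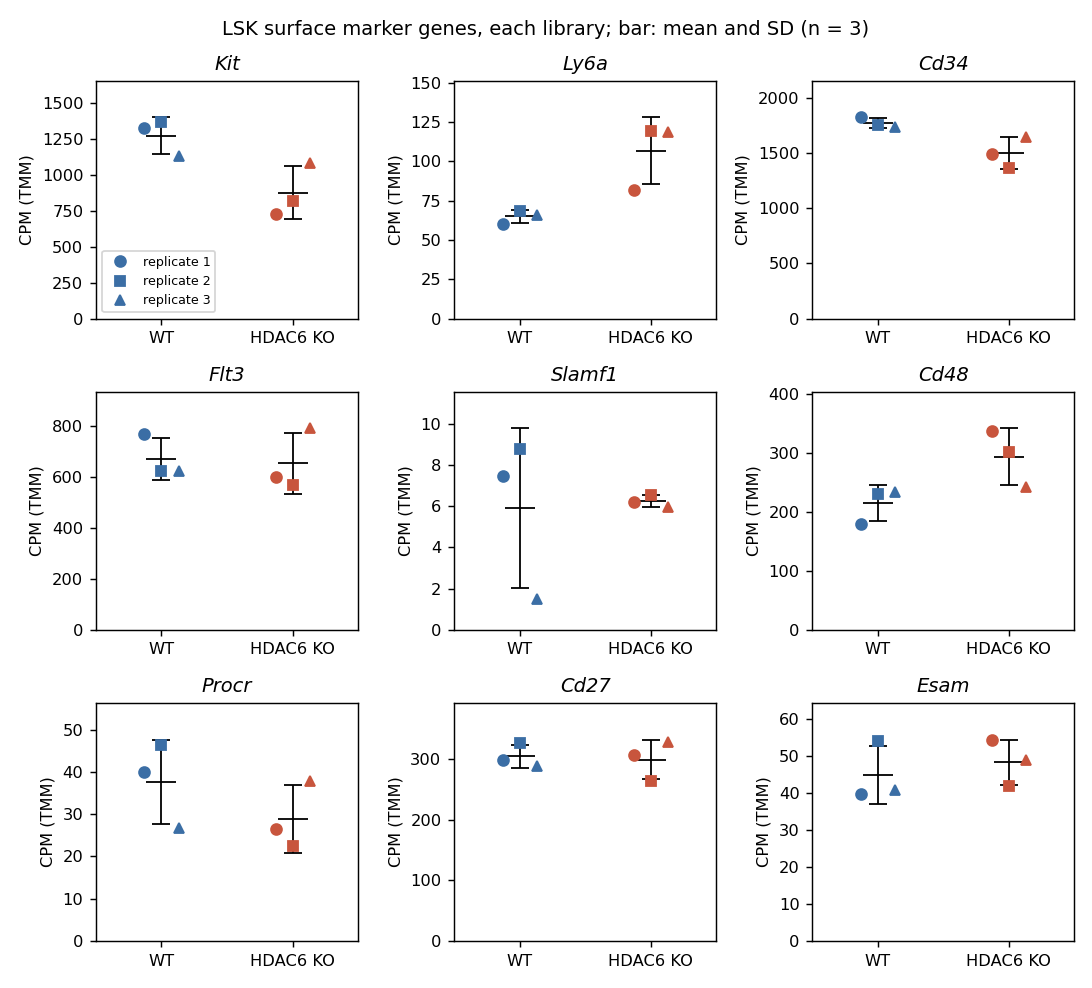
Level of each surface marker gene in CPM (TMM-scaled counts, vertical axis from 0) in the 3 WT and 3 HDAC6 knockout (KO) libraries; each symbol is 1 library, with the mean and SD of each group. Kit and Cd34 lie lower and Ly6a and Cd48 higher in all 3 knockout libraries, and Slamf1 is low in WT replicate 3 at 1.51 CPM.

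Promoter sequence is shown for the 3 of the 4 markers with non-overlapping groups that the RefSeq promoter table holds; that table matched 7 of the 9 markers. Each line gives the 250 bases before the annotated start, 5′ to 3′ on the strand of the gene, in build GRCm38.p6, which is older than the build named for the data. Capitals mark the motifs searched on both strands, a GATA motif (GATAA), an E-box (CANNTG), an ETS motif (GGAAGT) and a GC box (GGGCGG).
Kit (chr5:75574737-75574986, plus strand): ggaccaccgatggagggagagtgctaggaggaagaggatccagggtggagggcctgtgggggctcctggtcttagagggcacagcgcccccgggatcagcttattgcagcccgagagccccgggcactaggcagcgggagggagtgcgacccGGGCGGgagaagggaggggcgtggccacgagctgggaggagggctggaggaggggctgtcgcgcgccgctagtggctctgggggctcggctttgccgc
Cd34 (chr1:194938571-194938820, plus strand): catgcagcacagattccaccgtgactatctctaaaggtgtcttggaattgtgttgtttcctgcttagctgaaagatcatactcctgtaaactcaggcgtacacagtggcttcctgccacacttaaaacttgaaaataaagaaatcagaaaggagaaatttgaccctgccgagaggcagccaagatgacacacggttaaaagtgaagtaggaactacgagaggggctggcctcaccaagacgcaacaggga
Cd48 (chr1:171681742-171681991, plus strand): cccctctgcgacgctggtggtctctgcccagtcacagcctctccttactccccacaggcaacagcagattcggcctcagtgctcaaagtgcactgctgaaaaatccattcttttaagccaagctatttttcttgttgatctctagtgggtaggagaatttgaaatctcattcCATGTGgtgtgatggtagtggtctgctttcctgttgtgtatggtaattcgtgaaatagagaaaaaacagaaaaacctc
The Kit window held 1 GC box, 98 bases before the start, and was 70.8% G and C, with 46.4% in Cd34 and 46.0% in Cd48. Cd34 held none of the 4 motifs and Cd48 held 1 E-box, 78 bases before the start. Among 27025 promoters of the same length, a GC box was present in 32.9%, an E-box in 66.0%, a GATA motif in 23.0% and an ETS motif in 20.0%. The table gives 2 starts for Kit, and the first is shown.

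The sort markers came first. Kit, the stem cell factor receptor and a tyrosine kinase, measured 1323, 1367 and 1127 CPM in WT replicates 1, 2 and 3 and 725, 817 and 1082 CPM in the knockout replicates. Knockout replicate 3 lay just under the lowest WT library, and the other knockout libraries lay well below. The knockout mean was 68.7% of the WT mean, 875 ± 185 against 1272 ± 127 CPM (SD, n = 3 each). The log2 fold change was -0.54 (SE 0.15), with an edgeR adjusted p of 0.298 and an unadjusted p of 0.00409. Kit passed at an adjusted p of 0.0412 by edgeR without knockout replicate 3, where 0.335% of genes passed. DESeq2 called it on all libraries at an adjusted p of 0.0471.

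Ly6a, which encodes Sca-1, measured 60.3, 68.7 and 66.3 CPM in the WT replicates and 82.1, 119 and 119 CPM in the knockout replicates. The WT libraries lay close together, and knockout replicate 1 was nearest to them. The mean was 1.64 times that of WT, with a log2 fold change of 0.71 (SE 0.16), an edgeR adjusted p of 0.298 and an unadjusted p of 0.000973. Ranked by that p, Ly6a stood at place 35 and Kit at place 160 of 12875 genes. DESeq2 called Ly6a higher at an adjusted p of 0.00718. The exact two-sided permutation p was 0.1 for each of Kit, Ly6a, Cd34 and Cd48, the smallest that 3 against 3 allows.

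The libraries that departed most from WT were not the same for both sort markers. For Kit the order from WT was knockout replicate 1, then 2, then 3. For Ly6a it was replicates 2 and 3 and then 1. Reads of Ly6a can also match its Ly6 relatives, and how such reads were divided was not tested. Of its 6 deposited counts 2 were not whole numbers. Of the 12 listed Ly6 family genes 8 were tested, and 7 lay higher in the knockout (median log2 fold change 0.69, or 1.09 without WT replicate 1, against -0.00 over all tested genes). By adjusted p 0 of these passed with edgeR, and 4 had an unadjusted p under 0.05, against 13.4% of all tested genes. DESeq2 called 1, Ly6a, against 1.35% of genes with an adjusted p. Of the 8, 4 had non-overlapping groups, all higher, namely Ly6a, Ly6e, Ly6i and Ly6k. Over all tested genes the share was 8.86% on that side and 18.6% on either side. Ly6e, an interferon-induced family member, measured 1507, 1574 and 1836 CPM in WT and 1929, 2487 and 1996 CPM in the knockout. Ly6i and Ly6k were under 4 CPM in every library. Knockout replicate 2, the library high in monocyte genes, was the highest for Ly6e, Ly6i, Ly6k, Ly6c1 and Ly6c2, with 443 CPM of Ly6c2 where the rest spanned 29.7 to 130 CPM. Without that library the median of the family was 0.63, and limma on voom weights gave 1.26 with all libraries. The part of monocyte transcripts in these values was not tested.

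Ly6a is an interferon-induced gene in many mouse cells. In a list of 30 interferon response genes, 29 were tested, 12 lay higher and 17 lower. Of these, 2 had an unadjusted edgeR p under 0.05, against 13.4% of all tested genes. By the adjusted p of edgeR or DESeq2, 0 of these 29 genes passed. Their median log2 fold change was -0.07, with a range of -0.26 (knockout replicate 3 left out) to 0.18 (knockout replicate 1 left out). In 3 of them the groups did not overlap, all higher, near the 8.86% of all tested genes on that side (18.6% on either side). These were Gbp3, a guanylate-binding protein gene, Bst2, which encodes tetherin, and Psmb8, an immunoproteasome subunit gene, with log2 fold changes of 0.56, 0.32 and 0.18. The summed level of the list was 8956 to 9591 CPM in WT and 8139 to 10773 CPM in the knockout, so the groups overlapped.

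The 2 sort markers set against each other separated the groups more widely than any other pair of markers. Per unit of transcript length, in the deposited FPKM, the Ly6a to Kit ratio was 0.303, 0.339 and 0.387 in the WT replicates and 0.756, 0.978 and 0.733 in the knockout replicates. The highest WT ratio lay well under the lowest knockout ratio. On counts the ratio was 2.38-fold higher in the knockout, a log2 difference of 1.25 (SE 0.17), and the gap between the groups was 0.90 log2 units. Leaving out any 1 library, or using FPKM, gave log2 differences of 1.12 to 1.35. Library size and scaling cancel in such a ratio. Unlike Kit alone, the ratio of knockout replicate 3 lay near that of knockout replicate 1.

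**Figure D2:**
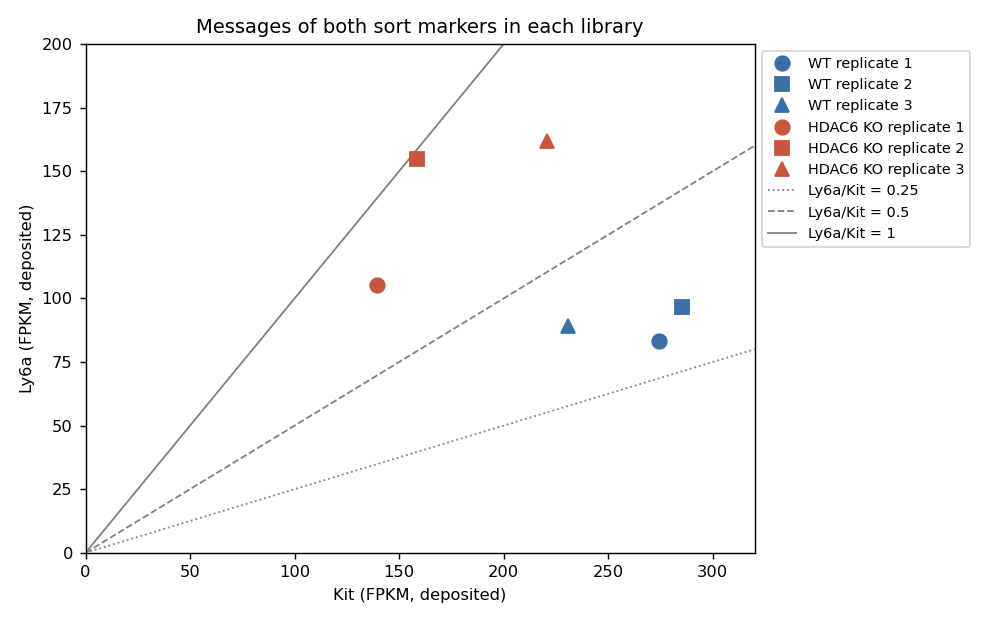
Deposited FPKM of Kit (horizontal axis) and Ly6a (vertical axis) in each of the 6 libraries, with grey lines of equal Ly6a to Kit ratio. The WT libraries lie between the lines for 0.25 and 0.5, with ratios of 0.303 to 0.387, and the knockout libraries between those for 0.5 and 1, with ratios of 0.733 to 0.978.

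Stem cell markers came next. Slamf1, which encodes the SLAM family receptor CD150, was the lowest of the 9 markers, at 7.47, 8.77 and 1.51 CPM in WT and 6.21, 6.56 and 5.98 CPM in the knockout. The knockout libraries lay close together, while WT replicate 3 was far below every other library. Its 40 counts had an exact 95% Poisson interval of 28.6 to 54.5, which covers counting error only, against 165 to 248 counts in the other libraries. The log2 fold change was 0.08 (SE 0.51, edgeR adjusted p = 0.959) with all libraries and -0.37 without WT replicate 3.

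Procr, which encodes the endothelial protein C receptor, measured 40.1, 46.3 and 26.8 CPM in WT and 26.4, 22.4 and 37.9 CPM in the knockout. WT replicate 3 was low and knockout replicate 3 high within its group, so the groups overlapped. The log2 fold change was -0.38 (SE 0.24, edgeR adjusted p = 0.5), and leaving out 1 library moved it from -0.21 (without WT replicate 2) and -0.23 (without knockout replicate 2) to -0.57 (without WT replicate 3) and -0.63 (without knockout replicate 3). Esam, an adhesion molecule gene shared by stem cells, endothelium and platelets, measured 39.8, 54.0 and 40.8 CPM in WT and 54.2, 41.9 and 48.8 CPM in the knockout. Its log2 fold change was 0.11 (SE 0.16, edgeR adjusted p = 0.791), and the ranges of both groups nearly coincided. Leaving out 1 library gave 0.02 (without knockout replicate 1) to 0.26 (without WT replicate 2). For Slamf1 and Esam the log2 fold change was smaller than its SE. Whether the 3 stem cell markers shared a direction therefore cannot be judged.

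Endothelial cells also carry ESAM and EPCR. Of 10 endothelial and stromal genes 7 were tested and none had non-overlapping groups. Cdh5, the gene of VE-cadherin, was at most 0.22 CPM in any library. The summed level of the list, mostly Pecam1, which blood cells also express, was 228 to 241 CPM in WT and 224 to 263 CPM in the knockout. Pdgfrb, the next largest part of that sum, measured 68, 80 and 94 CPM in WT and 94, 85 and 97 CPM in the knockout.

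Markers gained by multipotent progenitors differed in direction. Cd34, a sialomucin gene, was the highest marker by FPKM in both groups and measured 1821, 1755 and 1729 CPM in WT and 1491, 1360 and 1647 CPM in the knockout. The mean was 84.8% of WT, a log2 fold change of -0.24 (SE 0.10, edgeR adjusted p = 0.344). Knockout replicate 3 was again nearest to WT. Flt3, the gene of the FLT3 ligand receptor, measured 768, 622 and 624 CPM in WT and 600, 570 and 791 CPM in the knockout. Knockout replicate 3 was the highest library and replicate 2 the lowest, and the log2 fold change was -0.04 (SE 0.14, edgeR adjusted p = 0.918).

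Cd48, a lipid-anchored SLAM family member that is absent from long-term stem cells and present on myeloid-biased progenitors, measured 180, 231 and 233 CPM in WT and 336, 302 and 241 CPM in the knockout. Knockout replicate 3 only just exceeded the highest WT library, whereas the other knockout libraries were clearly higher. The mean was 1.37 times that of WT, a log2 fold change of 0.45 (SE 0.15, edgeR adjusted p = 0.307). Cd27, a tumour necrosis factor receptor family gene expressed across progenitors, measured 299, 326 and 289 CPM in WT and 306, 263 and 328 CPM in the knockout. Its log2 fold change was -0.03 (SE 0.11, edgeR adjusted p = 0.931), the smallest of the 9.

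Cd48 and Slamf1 lie side by side on chromosome 1, with 0 protein-coding genes between them in the GENCODE M21 annotation. The Slamf1 values give no counterpart to the separated groups of Cd48. Of 9 SLAM family genes 8 were tested, 7 lay higher and 1 lower. Only Cd48 had non-overlapping groups, where the share over all tested genes was 18.6%. Slamf1, counted among the 7, lay lower without WT replicate 3 (log2 fold change -0.37). Ly9 and Cd84, which encode the receptors CD229 and CD84, had log2 fold changes of 0.24 (SE 0.18) and -0.33 (SE 0.17). Cd244a, which encodes the CD48 receptor 2B4, had 0.17 (SE 0.14).

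Ordered by length-scaled level in WT, Cd34 led with 791 ± 27.4 FPKM (SD, n = 3). Kit at 263 ± 28.9, Cd27 at 232 ± 17.5, Cd48 at 223 ± 30.9 and Flt3 at 200 ± 25.3 FPKM followed, and each overlapped its neighbour in that order. Ly6a at 89.7 ± 6.86 FPKM lay apart from both neighbours. Procr at 29.0 ± 8.19 and Esam at 28.1 ± 5.32 FPKM overlapped, and Slamf1 was last at 3.44 ± 2.07 FPKM. In the knockout Kit stood at place 5 against place 2 in WT, at 173 ± 42.7 FPKM, and Cd48 at place 2 against place 4, at 290 ± 38.9 FPKM. Ly6a stood at place 6 in both, at 141 ± 30.8 FPKM in the knockout, where its range overlapped that of Kit.

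All 36 ratios of 2 markers within a library were compared. The groups did not overlap in 11 of the 36, and over all 77893921 pairs of tested genes with counts in every library the share was 18.0%. The exact two-sided permutation p was 0.1 for each of the 11, 0.327 after Benjamini-Hochberg adjustment over the 36 pairs, and a smaller value cannot be reached with 3 against 3. Kit and Ly6a took part in 5 each, Cd34 and Cd27 in 3 each, Flt3 and Cd48 in 2 each, Procr and Esam in 1 each and Slamf1 in 0. None of the 11 joined 2 of the 5 markers whose own groups overlapped. The deposited FPKM gave the same 11 ratios.

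**Figure D3:**
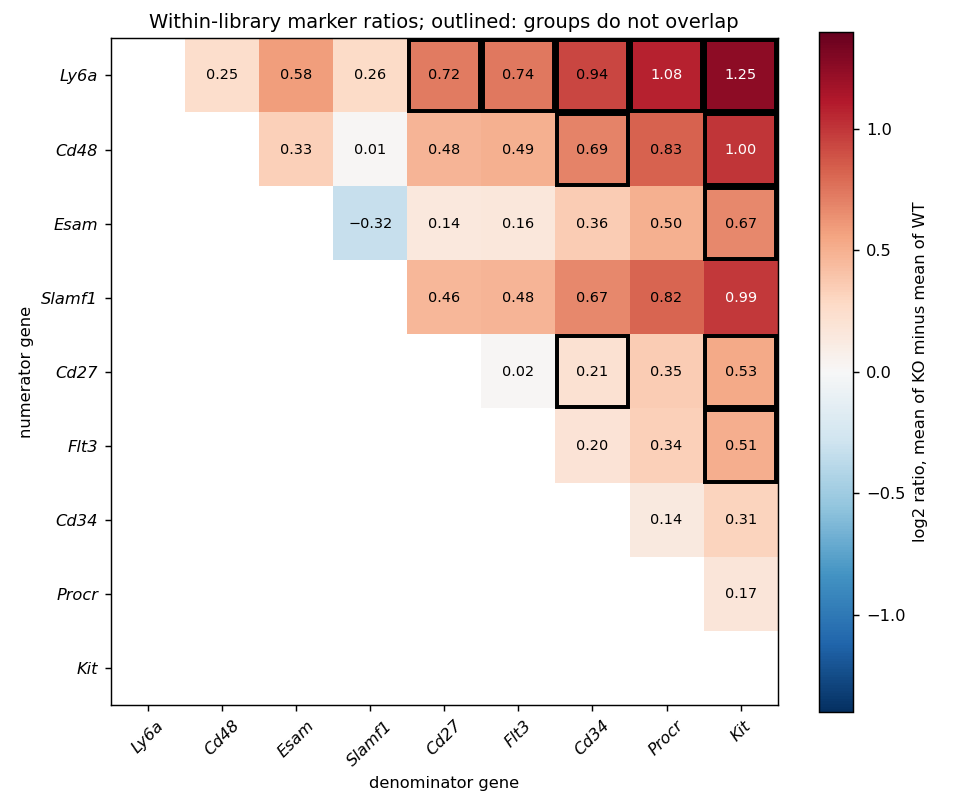
Difference between the knockout mean and the WT mean of the log2 count ratio of each pair of markers (colour and printed value), with the numerator gene in rows and the denominator gene in columns. Outlined cells are the 11 pairs whose WT and knockout values do not overlap, and the Ly6a row and the Kit column hold 9 of them, with 1.25 for Ly6a over Kit.

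Most of these ratios had Kit or Ly6a on one side. Relative to Kit, Flt3 was 0.836, 0.657 and 0.797 by FPKM in WT and 1.19, 1.01 and 1.05 in the knockout. Flt3 alone did not separate the groups, but its ratio to Kit did, by 0.51 log2 units (SE 0.13). The Cd27 to Kit ratio differed by 0.53 log2 units (SE 0.16), from 0.830, 0.881 and 0.942 in WT to 1.56, 1.19 and 1.12 in the knockout. The Cd48 to Kit ratio was 0.683, 0.854 and 1.03 in WT and 2.33, 1.87 and 1.12 in the knockout, a difference of 1.00 log2 units (SE 0.36). Its groups were only 0.11 log2 units apart. The Kit to Esam ratio was 0.629-fold that of WT, with all 3 knockout libraries lower.

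Relative to Ly6a, Cd34, Flt3, Cd27 and Procr were all lower in each knockout library than in any WT library. The Ly6a to Cd34 ratio was 1.91-fold higher (log2 difference 0.94, SE 0.21), and the Ly6a to Procr ratio 2.11-fold higher (1.08, SE 0.35). Ly6a over Esam, Cd48 and Slamf1 overlapped between the groups. Only 2 ratios without either sort marker separated the groups. Cd48 to Cd34, both progenitor markers, was 0.229, 0.307 and 0.312 by FPKM in WT and 0.528, 0.522 and 0.341 in the knockout. Cd34 to Cd27 was 3.59, 3.16 and 3.51 in WT and 2.84, 3.01 and 2.95 in the knockout, a small difference of -0.21 log2 units (SE 0.06) with little spread in either group.

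The ratios that mark the stem cell and progenitor division itself overlapped. Slamf1 to Cd48 depended on WT replicate 3: the Cd48 to Slamf1 ratio by FPKM was 40.5, 52.5 and 226 in WT and 94, 83.7 and 77.3 in the knockout. In the other WT libraries it was below all knockout libraries. Flt3 to Procr was 7.48, 5.18 and 9.16 in WT and 8.65, 9.92 and 8.16 in the knockout. Without WT replicate 3, the groups did not overlap in 22 of the 36 ratios, where the share over all gene pairs was 33.8%, and without knockout replicate 3 in 21, where it was 38.5%. The mean of Cd34, Flt3 and Cd48 less that of Slamf1, Procr and Esam, in log2 CPM centred per gene, was -0.22, -0.51 and 0.73 in WT and 0.01, 0.06 and -0.07 in the knockout. Without Slamf1 it was -0.07, -0.40 and 0.19 in WT and 0.09, 0.27 and -0.08 in the knockout. The high value of WT replicate 3 thus rested largely on Slamf1, with 40 counts there. Without Slamf1, WT replicate 3 was still the highest WT library, and knockout replicate 2 was the highest of all. The groups overlapped either way.

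Other surface genes that follow the same division were listed apart from the 9 markers. On the stem cell side, 19 of 20 genes were tested, 15 lay lower and 4 higher. Of these, 5 had an unadjusted edgeR p under 0.05, against 13.4% of all tested genes. By the adjusted p of edgeR or DESeq2, 0 of the list passed. The median log2 fold change was -0.25, and 4 genes had non-overlapping groups, all lower. That share is near the 18.6% of all tested genes, of which 9.7% lay lower. These genes were the tetraspanin genes Cd63 and Cd81, the adhesion gene Alcam and the receptor gene Bmpr2. Cd81 measured 459, 408 and 373 CPM in WT and 342, 277 and 368 CPM in the knockout. Its knockout replicate 3 lay just under the lowest WT library.

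On the progenitor side all 15 genes were tested, 9 lay higher and 6 lower, and their median log2 fold change was 0.39. Leaving out knockout replicate 2 or 3 lowered the median to 0.06 in either case. By edgeR 5 had an unadjusted p under 0.05, against 13.4% of all tested genes, and 0 an adjusted one. DESeq2 called 2, Csf2rb and Cd7, against 1.35% of genes with an adjusted p. Of the 15, 3 had non-overlapping groups, all higher: Csf2rb, the common beta chain of cytokine receptors, Fcgr2b, an Fc receptor gene, and Cd7. That share is also near the 18.6% of all tested genes, of which 8.86% lay higher. Csf2rb measured 65.6, 68.2 and 94.0 CPM in WT and 143, 158 and 95.8 CPM in the knockout. The lymphoid receptor gene Il7r, at -0.14 (SE 0.31), and Csf3r, the granulocyte colony-stimulating factor receptor gene, at -0.07 (SE 0.10), lay near 0. Knockout replicate 2 stood high for Ly6c2, as given above, and for Csf1r, the macrophage colony-stimulating factor receptor gene, at 208 CPM where the rest spanned 35.4 to 73.7 CPM.

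**Figure D4:**
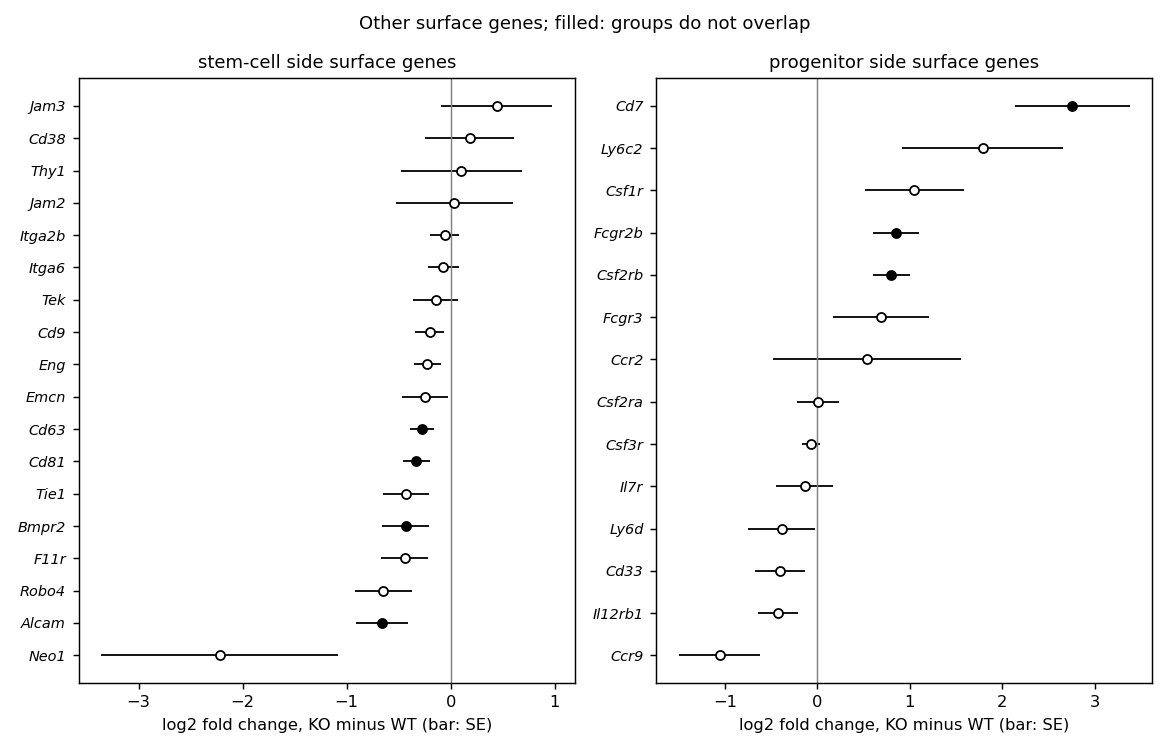
Log2 fold change of knockout over WT with its SE (horizontal axis) for tested surface genes listed for the stem cell side (left panel) and the progenitor side (right panel), with 1 gene of each list not shown. Filled points are genes whose WT and knockout libraries do not overlap, 4 on the left, all negative, and 3 on the right, all positive.

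Of 15 ligands and partners of the markers 11 were tested, and 2, Siva1 and Cd2, had non-overlapping groups, near the 18.6% of all tested genes. The same 2 did not pass the adjusted edgeR p, and DESeq2 called 1, Cd2, against 1.35% of genes with an adjusted p. Kitl, the gene of stem cell factor, was at most 0.95 CPM in any library, and Cd70, the gene of the CD27 ligand, at most 0.18 CPM. Flt3l, the FLT3 ligand gene, measured 15.1, 8.34 and 6.97 CPM in WT and 5.95, 9.06 and 11.6 CPM in the knockout, with overlapping groups. The CD27 adaptor genes Traf2 and Traf5 and the coagulation genes Thbd and F2r, which act with EPCR, also overlapped. Siva1, the gene of a CD27-binding protein, measured 75.5, 79.6 and 79.7 CPM in WT and 116, 94.4 and 81.1 CPM in the knockout (log2 fold change 0.31, SE 0.14, edgeR adjusted p = 0.374). Cd2, the gene of a T and natural killer cell receptor that binds CD48, was at most 0.11 CPM in WT and 0.51, 2.76 and 1.99 CPM in the knockout (edgeR unadjusted p = 0.000736, adjusted p = 0.298). With 2 or 3 counts in each WT library, no fold is given.

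Of 23 genes of c-kit and FLT3 signalling, all tested, 10 lay higher and 13 lower, and their median log2 fold change was -0.05. By edgeR 5 had an unadjusted p under 0.05, 0 passed by the adjusted p of edgeR or DESeq2, and 7 had non-overlapping groups, 4 higher and 3 lower. Over all tested genes 13.4% had such a p and 18.6% non-overlapping groups. The kinase genes Fyn and Jak2 were on the lower side, at log2 fold changes of -0.84 (SE 0.23) and -0.56 (SE 0.20). Pik3cd, a phosphoinositide kinase subunit gene, and Sh2b3, which encodes the inhibitory adaptor LNK, were on the higher side at 0.30 (SE 0.11) and 0.42 (SE 0.16). Jak2 measured 31.5, 32.9 and 26.9 CPM in WT and 15.5, 23.1 and 23.4 CPM in the knockout. Sh2b3 measured 36.6, 31.5 and 43.6 CPM in WT and 44.7, 51.2 and 53.6 CPM in the knockout. In both genes the gap between the groups was small.

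Genes whose levels over the 6 libraries lay nearest to those of Kit, among 10103 others with a mean of at least 5 CPM, were Sgms1, Sfi1, Dock5 and Jakmip1. Their root mean square distances were 0.05, 0.06, 0.06 and 0.06 log2 units after centring. Sgms1, a sphingomyelin synthase gene, measured 99.7, 106 and 83.6 CPM in WT and 55.6, 57.6 and 78.4 CPM in the knockout. Nearest to Ly6a were Oas1g, Slc31a2, Atg2b and Slc36a1, at 0.12, 0.13, 0.15 and 0.15 log2 units. Oas1g, an oligoadenylate synthetase gene, measured 8.90, 9.87 and 9.09 CPM in WT and 12.3, 15.2 and 14.3 CPM in the knockout.

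Markers of other cells that a sort could hold differed between libraries, and their part in the marker values was not tested. Mast cells carry c-kit. Of 9 mast cell and basophil genes 8 lay higher. In 3 the groups did not overlap, all higher, against 8.86% of all tested genes on that side and 18.6% on either side. DESeq2 called 2 of the 9, Fcer1a and Mcpt8, against 1.35% of genes with an adjusted p. By edgeR 0 were called, with 4 at an unadjusted p under 0.05, against 13.4% of all tested genes. The list had summed levels of 254 to 327 CPM in WT and 295 to 454 CPM in the knockout, while Kit lay lower. Granulocyte and monocyte genes summed to 5180 to 7973 CPM in WT and to 7049, 17925 and 5927 CPM in knockout replicates 1, 2 and 3, and 9 of 10 lay higher.

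Of 14 T and natural killer genes 11 were tested and 7 lay higher. Non-overlapping groups were found in 3, 2 higher and 1 lower, against 18.6% of all tested genes. Their median log2 fold change was 0.77, or 0.44 without knockout replicate 2. By edgeR 6 had an unadjusted p under 0.05, against 13.4% of all tested genes, and 0 an adjusted one. DESeq2 called 3, Il2rb, Ncr1 and Gzma, against 1.35% of genes with an adjusted p. The groups of Ncr1 and Gzma overlapped. Those that did not overlap were Il2rb and Prf1 on the higher side and Lck on the lower. Lck measured 76.7, 63.5 and 58.5 CPM in WT and 47.5, 43.9 and 57.4 CPM in the knockout. Il2rb, a receptor chain of natural killer cells, measured 2.87, 5.76 and 5.15 CPM in WT and 8.78, 23.6 and 33.3 CPM in the knockout. The natural killer receptor gene Ncr1 measured 0.65, 1.56 and 2.54 CPM in WT and 1.62, 7.50 and 14.1 CPM in the knockout. The granzyme gene Gzma was at most 0.39 CPM in WT and 0.29, 7.47 and 2.43 CPM in the knockout, so replicates 2 and 3 were high. Of the CD3 chains of T cells, Cd3g reached at most 0.47 CPM and the others less. The list summed to 355 to 397 CPM in WT and 333 to 429 CPM in the knockout, most of it Nkg7 (256 to 312 CPM, log2 fold change -0.03), a granule membrane gene.

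Of 12 neutrophil genes 11 were tested and 9 lay lower. In 4 the groups did not overlap, all lower, against 9.7% of all tested genes on that side and 18.6% on either side. Their median log2 fold change was -1.19. By edgeR 6 had an unadjusted p under 0.05, against 13.4% of all tested genes, and 0 an adjusted one. DESeq2 called 3, the granule genes Ltf and Ngp and the calprotectin subunit gene S100a8, against 1.35% of genes with an adjusted p. Ltf measured 15.2, 5.87 and 24.7 CPM in WT and 2.86, 2.61 and 1.02 CPM in the knockout. Ngp measured 13.1, 10.1 and 30.1 CPM in WT and 4.11, 6.13 and 2.25 CPM in the knockout. The fourth non-overlapping gene was Mmp9, at most 2.61 CPM in any library. The list summed to 92.4 to 168 CPM in WT and 58.3 to 105 CPM in the knockout, with Itgam, a gene of many myeloid cells, at 34.3 to 67.5 CPM. B lineage genes, 6 of 8 tested, had 0 with non-overlapping groups, and summed to 57.7 to 90.7 CPM in WT and 66.7 to 101 CPM in the knockout. Megakaryocyte genes, 9 of 10 tested, had a median log2 fold change of -0.50, or -0.29 without knockout replicate 1. Of these, 0 had non-overlapping groups, against 18.6% of all tested genes. By edgeR 2 had an unadjusted p under 0.05, against 13.4% of all tested genes. By the adjusted p of edgeR or DESeq2, 0 passed. The list summed to 648 to 745 CPM in WT and 450 to 642 CPM in the knockout. That sum separated the groups although no single tested gene of the list did. Erythroid genes, all 11 tested, summed to 1173 to 1706 CPM in WT and 1028 to 1457 CPM in the knockout.

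Innate lymphoid genes, 4 of 9 tested, summed to 67.9 to 73.9 CPM in WT and 48.9 to 78.1 CPM in the knockout, and Il5 was at 0 in all libraries. Of the 4, 2 had non-overlapping groups, 1 lower and 1 higher, against 18.6% of all tested genes. Gata3 had a log2 fold change of -0.61 (SE 0.22) and Il1rl1 of 0.91 (SE 0.28). The same 2 had an unadjusted edgeR p under 0.05, against 13.4% of all tested genes. By the adjusted p of edgeR or DESeq2, 0 passed. Division genes of the G2 and M phases lay higher in 19 of 20 cases. In 10 the groups did not overlap, all higher, against 8.86% of all tested genes on that side and 18.6% on either side. Their median log2 fold change was 0.26. By edgeR 9 had an unadjusted p under 0.05, against 13.4% of all tested genes, and 0 an adjusted one. DESeq2 called 1, the mitotic kinase gene Plk1, against 1.35% of genes with an adjusted p. The division genes summed to 3350 to 3588 CPM in WT and to 4666, 4120 and 3669 CPM in knockout replicates 1, 2 and 3. That order is the reverse of the order of Kit among the same libraries, and it is the order of Cd48. With 3 knockout libraries such orders are a description, and their relation to Kit and Cd48 was not tested.

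Some markers share their position with other genes in the GENCODE M21 annotation. Cd27 overlaps the protein-coding gene Vamp1 on the opposite strand and Mir8113 on its own, Cd34 overlaps Gm16897 and Flt3 overlaps Gm26597, both annotated as antisense, and Cd48 overlaps Gm37010. The labels do not state the strand setting of the counting, so reads from such partners cannot be told apart from those of the marker. Kit, Ly6a, Slamf1, Procr and Esam had no overlapping gene there.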

How the data were processed

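RNA from LSK cells of 3 WT and 3 HDAC6 knockout samples was extracted with Trizol and sequenced, per the labels' protocols. Tools and build, per the submitters' processing notes, which assign no roles, were GRCm39, DESeq2, featureCounts 2.0.3, SAMtools 1.13 and HISAT2 2.2.1. Annotation, strand setting and the treatment of shared reads are not stated there. For each symbol and library the authors deposited 1 estimated count and 1 FPKM value, per the file headers. The estimated counts deposited were fractional in 19.6% to 20.9% of cases and were rounded before testing. The members and gene lists were chosen with earlier results of these data known.

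The fit over 12875 genes used edgeR 4.0.16 in R 4.3.3 (filterByExpr with a minimum count of 10, TMM, robust quasi-likelihood test, Benjamini-Hochberg adjusted p of 0.05). TMM factors ran from 0.952 to 1.034. Alternatives were RLE scaling, library size alone, no filter, a filter of 5 CPM in 3 libraries, DESeq2 1.42.0, limma 3.58.1 on voom weights and on log2(FPKM + 1), the newer edgeR option, the replicate number as a block, and each library left out. Ratios used unrounded counts. The edgeR step was tested on simulated data. Library pairs differed by 25.8 to 91.6 in chi-square per degree of freedom, so each counted as 1 sample. Named genes were the members, their ligands and partners, up to 4 genes of smallest p per list and the 4 nearest profiles of Kit and of Ly6a; others were named after their values were seen. A gene in each of the stem cell side and progenitor side lists is counted but not reported here by name.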

Additional observations from a re-analysis of the deposited data

How the results depend on the processing

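Over 15 alternatives of the fit, Kit kept a negative log2 fold change (-0.72 to -0.42, adjusted p 0.0412 to 0.744), as did Cd34 (-0.32 to -0.17), and Ly6a (0.62 to 0.87, adjusted p 0.00718 to 0.744) and Cd48 (0.34 to 0.57) a positive one. Of the 9 markers, 0 passed by edgeR with all libraries (4 had an unadjusted p under 0.05), 2 by DESeq2 (Kit and Ly6a) and 0 to 1 with 1 library left out. Over all genes, 1 was called by edgeR, 181 by DESeq2 (120 higher, 61 lower) and 1 to 44 with 1 library left out: 4 without knockout replicate 1 and 44 without knockout replicate 3. The cause of these differences was not tested. The number of ratios without overlap was 11, and 12 to 22 with 1 library left out, where fewer values make separation easier.

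Markers near 0 changed sign. With 1 library left out, the log2 fold change of Flt3 ran from -0.20 to 0.070, positive without knockout replicate 1 (0.02), knockout replicate 2 (0.05) or WT replicate 1 (0.070). That of Cd27 ran from -0.10 to 0.059, positive without knockout replicate 2 (0.059) or WT replicate 2 (0.03), and that of Slamf1 from -0.37 to 0.48, negative without WT replicate 3. With library size alone Slamf1 had -0.00 (-0.0023). Library size alone shifted all genes by -0.07. The labels do not state whether the replicate numbers pair the samples. Deviations of same-numbered libraries correlated at 0.06, -0.06 and -0.17, and not every library correlated best with its own number. With 3 libraries per group these values cannot decide whether samples were paired. With the replicate block 1 gene and 0 markers were called, and 14 ratios had the same sign in all 3 numbered pairs. Depth limited Slamf1 most, at 40 to 248 counts.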
